A study of Homo sapiens with 4 samples.

Results

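Chromosomes 20, 21 and 22 are, with chromosome 19, the smallest human autosomes, and their Hi-C contacts within each chromosome were described across 4 maps. Every bin of about 200 kb on the 3 chromosomes was a member, 660 bins in all (301, 181 and 178) of 14444 in the bin list, of which 14310 lay on the 22 autosomes and X. A bin was kept where at least 50% of its same-chromosome pairs had a value in each map, which held for 642 of the 660 bins (299, 175 and 168) and 13607 of the genome. Hi-C cuts cross-linked chromatin with a restriction enzyme, here HindIII inside the nucleus, ligates ends that lay close together and counts the joined pairs by sequencing.

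IMR90 cells, a long-used human fibroblast line from lung, were grown in DMEM with 10% FBS at 5% O2. All carried pLNCX2 ER:HRAS G12V, an oncogenic RAS fused to a receptor domain that 4-hydroxytamoxifen (4OHT) switches on. Grow cells were proliferating with no treatment listed, and OIS cells (oncogene-induced senescence) had 100 nM 4OHT for 6 days. Grow-shA1 and OIS-shA1 cells also carried pMSCV miR shHMGA1, a short hairpin RNA against HMGA1 (shA1), and each of these maps stood for 2 samples, taken here as pooled because 1 map was given for both. Whether the cells of the Grow and OIS maps carried a control vector in its place is not given in the sources used here. The Grow and OIS maps without shA1 had been made by the laboratory in previous work and belonged to no sample of the series, so each comparison of a map with shA1 against one without it also compared data sets, and these cannot be told apart. One map existed for each condition (no replicate maps), so differences are given with no error over replicates and no test, and "rose" and "fell" describe a difference between 2 maps. Each map averages over many cells, so a weaker contact in all cells and a contact lost in some cells cannot be told apart.

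In interphase nuclei each chromosome keeps to a territory, and within it active, gene-rich chromatin (the A compartment) and silent, gene-poor chromatin (the B compartment) each contact chromatin of their own kind more than the other. Gene-poor chromosomes tend to lie at the nuclear periphery and gene-rich ones in the interior, and the short arms of chromosomes 21 and 22 carry ribosomal DNA and gather at the nucleolus. HMGA1 binds the minor groove of AT-rich DNA through its AT-hooks and is a component of senescence-associated heterochromatin foci, the dense bodies into which the heterochromatin of many senescent fibroblasts is drawn.

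The 3 chromosomes differ sharply in composition, and chromosome 21 carries both extremes on a single arm. Proximal 21q (chr21:14338465-32000271, hg19) held 89 bins with a GC content of 36.7%, 58 starts of protein-coding genes (3.28 per Mb) and 64 bins with no gene start. Distal 21q (chr21:32000272-48129895) held 81 bins, 78 of them kept, with a GC content of 45.2% and 158 gene starts (10.3 per Mb). The long arm of chromosome 22 was the richest in genes, with 168 kept bins of 177, a GC content of 48.1% and 438 gene starts (13.1 per Mb). On chromosome 20 the short arm had a GC content of 41.8% and 7.08 gene starts per Mb, and the long arm 45.9% and 10.6 per Mb. Over all kept bins of the genome the values were 40.6% and 6.56 per Mb. The short arm of chromosome 21 gave 8 kept bins and that of chromosome 22 none.

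Runs of at least 10 bases of A and T without interruption, the kind of sequence that AT-hook proteins can bind, covered 6.97% of proximal 21q, 3.89% of distal 21q and 3.45% of 22q, against 5.29% of the genome. Such runs were counted in the bin of each segment of 21q and 22q whose contact with distant B bins fell most between Grow and OIS, since these bins carry the largest losses described further on. The bin of proximal 21q (chr21:21200820-21399974, between genes) held 1300 such runs covering 8.41% of it, the bin of distal 21q (chr21:41399063-41600170, within DSCAM) 544 runs covering 3.45%, and the bin of 22q (chr22:31200308-31392436, with OSBP2, MORC2 and TUG1) 468 runs covering 3.44%. The sequence shown is the longest run of the bin of distal 21q, in capitals with 30 flanking bases on either side, read from the plus strand of GRCh37, the assembly named hg19 in the files. It lies in no exon.
Distal 21q, chr21:41527951-41528054: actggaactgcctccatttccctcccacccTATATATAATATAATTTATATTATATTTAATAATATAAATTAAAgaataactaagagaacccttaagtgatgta
Bin edges lie at HindIII sites, AAGCTT, and the sequence at the start of the bins of proximal 21q and 22q follows with HindIII sites in capitals.
Proximal 21q, chr21:21200789-21200854: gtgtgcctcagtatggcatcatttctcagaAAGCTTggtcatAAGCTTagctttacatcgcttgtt
22q, chr22:31200277-31200342: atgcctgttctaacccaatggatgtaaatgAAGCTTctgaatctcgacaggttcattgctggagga
HindIII sites numbered 61.2 per 200 kb on proximal 21q, 52.1 on distal 21q and 42.4 on 22q.

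The value of a pair of bins was the distance-corrected contact score, which lies above 0 where a pair met more often than pairs at the same distance and below 0 where it met less often. The base of its logarithm is not given in the sources used here, so differences of scores are reported and no folds. Pairs 2 Mb or less apart are called local and pairs farther apart distal. The maps held no read counts, and the share of distal pairs with a value stood in for depth. It fell from Grow to OIS on all 3 chromosomes: 95.2%, 92.3%, 86.1% and 84.8% of the distal pairs of chromosome 20 had a value in Grow, Grow-shA1, OIS and OIS-shA1 (the order used throughout), against 96.3%, 93.7%, 84.1% and 84.1% on chromosome 21, 96.9%, 94.6%, 86.3% and 87.0% on chromosome 22, and 89.4%, 84.2%, 80.4% and 78.6% over all chromosomes.

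In growing cells the gene-poor part of 21q had more local contact than the gene-rich part, and in OIS this contrast was nearly gone. In Grow a bin of proximal 21q met its neighbours within 2 Mb more than the average bin, with a mean local contact of 0.43, and in Grow-shA1 the value was 0.36. In OIS it was 0.01 and in OIS-shA1 0.25. Distal 21q took the opposite course, with −0.43 and −0.39 in the growing maps, −0.11 in OIS and −0.34 in OIS-shA1. The gap between the parts was thus 0.86, 0.75, 0.12 and 0.59, smallest in OIS, with OIS-shA1 between OIS and the growing maps. The change was −0.75 from Grow to OIS and 0.47 from OIS to OIS-shA1, while Grow-shA1 differed from Grow by −0.11 and OIS-shA1 from Grow-shA1 by −0.16. The changes of −0.75 and 0.47 share the OIS map with opposite signs, so they are not independent. The arms of chromosome 20, one poorer and one richer in genes, held a gap of 0.55, 0.56, 0.53 and 0.54, a change of −0.02 from Grow to OIS.

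The shift ran along most of each part. Mean local contact was lower in OIS than in Grow in 77 of the 89 bins of proximal 21q (86.5%) and in 11 of the 78 bins of distal 21q (14.1%), where 64.6% of the bins of the genome were lower. From OIS to OIS-shA1 it was lower in 23 of the 89 proximal bins and in 70 of the 78 distal bins, against 55.1% of the genome. From Grow to Grow-shA1 the counts were 66 of 89 and 25 of 78 (genome 71.7%), and from Grow-shA1 to OIS-shA1 68 of 89 and 32 of 78 (genome 65.8%). On 22q 101 of 168 bins were lower in OIS than in Grow and 79 of 168 lower in OIS-shA1 than in OIS, shares of 60.1% and 47.0% that lie near those of the genome. Scores are relative to pairs at the same distance, and the mean over the whole of chromosome 21 moved by −0.07 from Grow to OIS, as on chromosome 22, so that a fall of one part and a rise of the other cannot be told apart from a shift of one part alone.

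**Figure D1:**
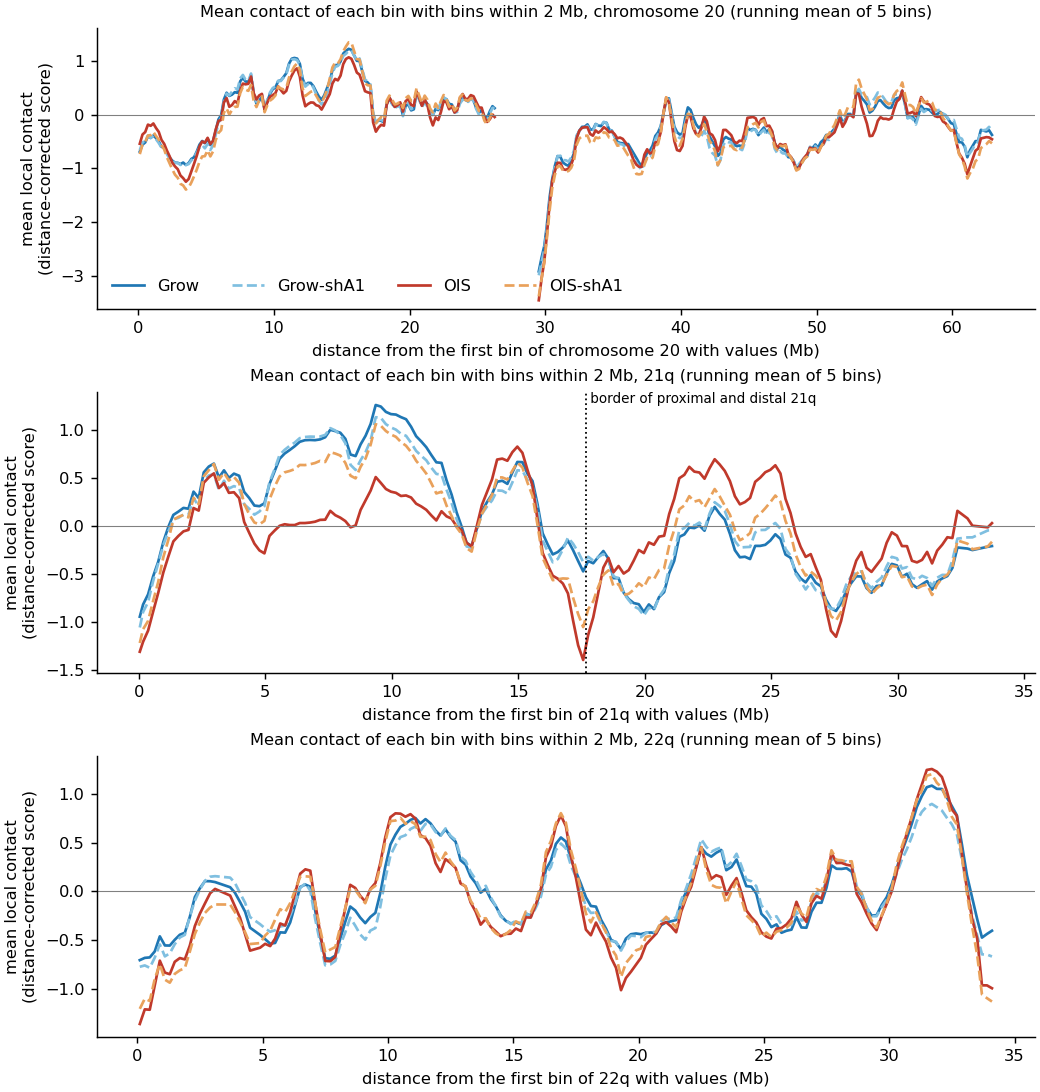
Mean contact of each bin with bins within 2 Mb (distance-corrected score, vertical axis, running mean over 5 bins) along chromosome 20, 21q and 22q (horizontal axis, distance in Mb from the first bin with values) in the 4 maps. On 21q the OIS line lies below the other 3 over much of proximal 21q and above them over much of distal 21q. The 4 lines of chromosome 20 and 22q run closer together, though local B-B pairs of 22q rose by 0.21 from Grow to OIS and A-B pairs fell by 0.22. The break in chromosome 20 is its centromere.

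Split by the compartments of the Grow map, local pairs of 2 B bins within proximal 21q scored 0.64, 0.58, 0.09 and 0.44 (592 pairs), a change of −0.56 from Grow to OIS and of 0.36 from OIS to OIS-shA1. Local pairs of 2 A bins there kept high scores of 0.87, 0.78, 1.04 and 0.87 (57 pairs). In distal 21q local A-A pairs scored −0.14, −0.07, 0.36 and 0.04 (311 pairs), a change of 0.50 from Grow to OIS. The falls of proximal 21q thus lay in its B chromatin, whereas in distal 21q the rise was largest between A bins, followed by A-B pairs (0.29) and B-B pairs (0.22). On 22q local B-B pairs scored 0.66, 0.57, 0.87 and 0.83 (357 pairs), a rise of 0.21 from Grow to OIS. A-A pairs of 22q changed by −0.11 and A-B pairs by −0.22. Local B-B pairs changed by −0.09 on 20p and by −0.02 on 20q. Since the compartments were called from the Grow map, falls of B-B pairs from Grow cannot be told apart from an effect of that choice.

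Single bins at the extremes of local contact carry recognisable gene clusters. Within proximal 21q the largest fall from Grow to OIS was in chr21:31601276-31803759, which holds the KRTAP24-1 and KRTAP13 genes for keratin-associated proteins of the hair shaft, with a mean local contact of −0.41, −0.31, −1.45 and −1.01 (change −1.04). The adjoining cluster of KRTAP20, KRTAP21 and KRTAP8-1 in the first bin of distal 21q (chr21:32000272-32199508) had the largest fall of distal 21q, with −0.65, −0.53, −1.59 and −1.18 (change −0.94). Both lie at the border between proximal and distal 21q, and every one of the 49 local pairs that span this border scored lower in OIS than in Grow, with means of −0.07, −0.01, −0.84 and −0.56. In distal 21q the largest rise was in the bin of OLIG2 (chr21:34201140-34399603), a transcription factor of the oligodendrocyte lineage, with −0.97, −0.95, −0.14 and −0.49 (change 0.83). Proximal 21q had its largest rise in a bin with no gene start (chr21:28399646-28600733), with 0.06, −0.09, 0.38 and 0.13.

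The largest rises of the other arms were smaller than the 0.83 of distal 21q, though those of 22q and 20q exceeded the 0.32 of proximal 21q. Their largest falls were smaller than the −1.04 of proximal 21q, apart from the last bin of 22q. On 22q the largest rise was in the bin of SEZ6L (0.20, 0.11, 0.65 and 0.73, change 0.45), a gene expressed in brain, and the largest fall in the last bin of the arm with a value, which holds SHANK3, a scaffold protein of synapses, ARSA and ACR (−0.44, −0.61, −1.64 and −1.39, change −1.20). Chromosome 20 had its largest rises at SRXN1 on 20p (−0.17, −0.09, 0.15 and −0.02, change 0.31) and at SRSF6, a splicing factor, with L3MBTL1 on 20q (0.24, 0.12, 0.58 and 0.47, change 0.34). Its largest falls were in a bin without a gene start on 20p (0.42, 0.42, −0.16 and 0.29, change −0.58) and in the first bin of 20q beside the centromere (−2.77, −2.82, −3.40 and −3.29, change −0.63).

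The gap between AT-rich and GC-rich bins was also compared among chromosomes, each chromosome being split at the median GC content of its kept bins. The low-GC bins of chromosome 21 exceeded its high-GC bins in mean local contact by 0.75, 0.66, 0.05 and 0.49. Its change of −0.69 from Grow to OIS was the lowest of the 23 chromosomes, the next being −0.44 on chromosome 9, and its change of 0.44 from OIS to OIS-shA1 was the highest, the next being 0.30 on chromosome 13. The median over the 23 chromosomes was −0.27 and 0.17. Chromosome 20 changed by −0.10 and 0.13 and chromosome 22 by −0.03 and 0.04, and on chromosome 22 the low-GC bins had no such excess in Grow, with gaps of 0.00, −0.01, −0.03 and 0.02. This comparison among chromosomes was chosen after the values of 21q were seen. Changes from Grow to OIS and from OIS to OIS-shA1 share the OIS map with opposite signs, so their ranks are not independent. From Grow-shA1 to OIS-shA1 chromosome 21 changed by −0.17, the lowest of the 23 but close to −0.16 on chromosome 3.

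Distal contact between proximal and distal 21q was also lower in OIS, and here OIS-shA1 was close to OIS. Pairs of a proximal and a distal bin had a mean score of 0.39, 0.32, 0.00 and 0.04 over the 4573 pairs with a value in every map, of 6893 possible. The difference was −0.39 from Grow to OIS, with 70.9% of the pairs lower, and 0.03 from OIS to OIS-shA1, with 46.9% lower. By distance the difference was −0.33 for pairs between 2 and 5 Mb, −0.19 between 5 and 10 Mb, −0.40 between 10 and 20 Mb and −0.55 between 20 and 50 Mb. Fewer of these pairs had a value in OIS (95.7%, 92.6%, 76.0% and 76.5%), and the difference was −0.13 with missing pairs counted as 0 and −0.15 over the pairs listed in each map.

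Distal pairs within proximal 21q scored 0.85, 0.71, 0.69 and 0.84, a difference of −0.16 from Grow to OIS and of 0.15 from OIS to OIS-shA1. The first was −0.32 with each map divided by its standard deviation and −0.03 with common centring. Its sign turned with distance, being −0.32 up to 5 Mb, −0.20 between 5 and 10 Mb and 0.16 beyond, so that pairs far apart scored higher in OIS and closer pairs lower. Distal pairs within distal 21q scored −0.44, −0.39, −0.33 and −0.51, a difference of 0.11 from Grow to OIS and of −0.18 from OIS to OIS-shA1. The gene-rich part thus had its lowest distal contact of the 4 maps in OIS-shA1, where the gene-poor part had nearly its value in Grow. From Grow to Grow-shA1 the differences were −0.14 for proximal pairs, −0.07 between the parts and 0.05 for distal 21q, and from Grow-shA1 to OIS-shA1 they were 0.13, −0.28 and −0.12, the 0.13 turning to −0.01 with that scaling.

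The distal contacts of 22q and of the arms of chromosome 20 were also lower in OIS than in Grow. Mean distal contact fell on every chromosome compared, with changes from −0.24 to −0.008 and a median of −0.08. The change was −0.12 on chromosome 20 and −0.15 on chromosome 22, so these falls are not read as a trait of these arms. Distal pairs of 22q scored 0.22, 0.19, 0.08 and 0.08 over 9809 pairs, a difference of −0.15 from Grow to OIS, which was −0.02 with missing pairs counted as 0. On chromosome 20 pairs within 20p scored 0.48, 0.41, 0.27 and 0.17, pairs of 20p with 20q 0.12, 0.07, 0.02 and 0.01, and pairs within 20q 0.13, 0.12, 0.06 and 0.05. Each of these was lower in both OIS maps than in both growing maps. The 1% of the pairs of chromosome 20 with the largest increase from Grow to OIS (321 pairs) held 46.7% from within 20q, where 31.7% of all pairs lay, and 1.87% from within 20p, where 21.9% lay, and the 321 largest decreases held 41.4% and 26.8%.

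**Figure D2:**
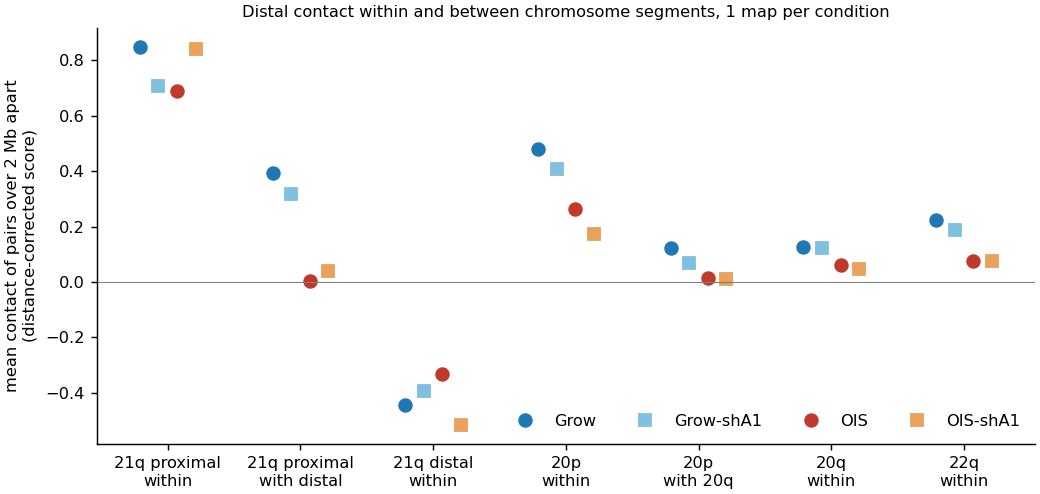
Mean distance-corrected score (vertical axis) of pairs over 2 Mb apart within and between the segments of chromosomes 20, 21 and 22 (horizontal axis), with 1 point for each map (circles without shA1, squares with shA1). Contact of proximal with distal 21q drops from 0.39 in Grow to 0.00 in OIS and is 0.04 in OIS-shA1, whereas contact within proximal 21q is 0.84 in OIS-shA1 against 0.69 in OIS.

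Between proximal and distal 21q the loss was largest for pairs of bins that were B in the Grow map. It cannot be told apart from an effect of choosing them by that map. Proximal-distal B-B pairs scored 1.17, 1.17, 0.49 and 0.59 (1942 pairs), a fall of 0.68 from Grow to OIS. A-A pairs across the border scored 0.25, 0.16, 0.30 and 0.16 (650 pairs), and A-B pairs −0.33, −0.47, −0.57 and −0.55 (1981 pairs). Of the 105 pairs that make up the 1% of the distal pairs of chromosome 21 with the largest decrease from Grow to OIS, 79.0% joined proximal to distal 21q, where 43.4% of all pairs lay, and 81.9% were B-B, against 48.2% of all. Of the 105 largest increases 36.2% lay within distal 21q, which held 20.4% of all pairs. By compartment 54.3% of these increases were A-B pairs, 25.7% B-B and 20% A-A, against 37.6%, 48.2% and 14.1% of all pairs.

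Over the whole of chromosome 21 the distal A-A contact was 0.04, 0.07, 0.20 and 0.04 and the B-B contact 1.00, 0.94, 0.68 and 0.76. Its 1492 A-A pairs were the fewest of the 23 chromosomes, and only chromosome 22 (1851) had fewer B-B pairs than its 5087. Means over few pairs can vary more, and an effect of this on the ranks was not tested. The A-A change of chromosome 21, 0.15 from Grow to OIS, was the highest of the 23 chromosomes and its change of −0.15 from OIS to OIS-shA1 the lowest. Its B-B changes of −0.33 and 0.08 were the lowest and the highest. These ranks held with values scaled, limited or centred otherwise and with missing pairs treated otherwise, except that the A-A rise ranked 3 over pairs more than 5 Mb apart. The A-A ranks also held with the compartments of each map, whereas the B-B ranks rest on the compartments of the Grow map: with those of each map the B-B difference turned to 0.13 from Grow to OIS and to −0.05 from OIS to OIS-shA1. Both changes share the OIS map with opposite signs, so ranks at opposite ends are not independent. From Grow-shA1 to OIS-shA1, without that map, the A-A change was −0.02 (rank 19 from the highest) and the B-B change −0.18 (rank 17). Next to chromosome 21 in the A-A rise from Grow to OIS was chromosome 18 with 0.13. Chromosome 22 stood at the other end, with A-A contacts of 0.32, 0.33, 0.24 and 0.23, whose change of −0.09 from Grow to OIS was the lowest of the 23, and B-B contacts of 1.05, 0.95, 0.86 and 0.71 (−0.20 from Grow to OIS and −0.15 from OIS to OIS-shA1). Chromosome 20 changed little between A bins (0.25, 0.25, 0.25 and 0.28) and fell by 0.18 between B bins (0.71, 0.64, 0.52 and 0.43).

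**Figure D3:**
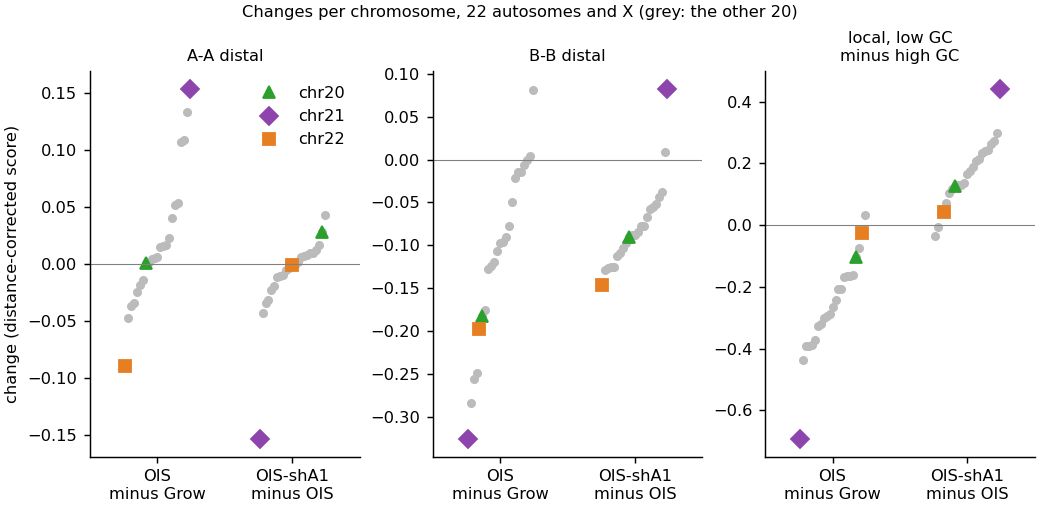
Change of distal A-A contact, of distal B-B contact and of the excess in local contact of low-GC over high-GC bins (vertical axes, differences of distance-corrected scores) from Grow to OIS and from OIS to OIS-shA1, for chromosomes 20, 21 and 22 (coloured) and the other 20 (grey), set side by side in order of their values. Chromosome 21 lies at one end of the 23 in all 6 columns, with 0.15 and −0.15, −0.33 and 0.08, and −0.69 and 0.44. Both columns of a panel share the OIS map with opposite signs, so places at opposite ends are not independent. The A-A means of chromosome 21 rest on 1492 pairs, the fewest of the 23.

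Compartment strength, the mean of A-A and B-B contact minus A-B contact, was highest on chromosome 21 among the 23 chromosomes in Grow. It was 1.01, 1.09, 1.08 and 1.05 on chromosome 21, 0.95, 0.94, 0.99 and 0.85 on chromosome 22, and 0.89, 0.90, 0.90 and 0.85 on chromosome 20. The differences from Grow to OIS (0.07, 0.04 and 0.01) turned negative, to −0.17, −0.18 and −0.20, when each map was divided by the standard deviation of its values. From OIS to OIS-shA1 the differences were −0.03, −0.15 and −0.05, with a median of −0.04 over the 23 chromosomes.

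More bins changed compartment on chromosome 21 than on the other 2. The compartment score was the first principal component of the correlation matrix of each chromosome, with positive values on the side richer in genes (A). The share of bins in A was 35.4%, 34.9%, 48.6% and 44% on chromosome 21, 39.5%, 40.5%, 45.2% and 47.8% on chromosome 20, and 59.5%, 61.3%, 61.3% and 61.3% on chromosome 22. From Grow to OIS 24 bins of chromosome 21 went from B to A (13.7% of its kept bins, the highest share of the 23 chromosomes). So did 18 of chromosome 20 (6.02%) and 6 of chromosome 22 (3.57%, the lowest), where 8.91% of the bins of the genome did so. Only bins that were B in Grow could go to A, and chromosome 21 had more of these than chromosome 22 for its size. Chromosome 11 came next with 12.3%, and 42.8% of its bins lay in A in Grow. Shares over B bins alone are not given here, so the ranks are not read as a trait of chromosomes 21 and 22. In the opposite direction, from A to B, went 1, 1 and 3 bins of chromosomes 20, 21 and 22, against 0.875% of the genome. Across bins the scores of OIS and Grow had a Pearson correlation of 0.946 on chromosome 20, 0.899 on chromosome 21 (rank 3 from the lowest of 23) and 0.968 on chromosome 22 (the highest), as a description over neighbouring bins that are not independent.

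Fewer bins of each chromosome changed sign from OIS to OIS-shA1 than from Grow to OIS. From OIS to OIS-shA1 no bin of chromosome 21 went from B to A and 8 went from A to B, 7 of them in distal 21q, whereas on chromosome 20 8 bins went to A and 0 to B, and on chromosome 22 2 went each way. In the genome 1.46% of bins went to A and 3.09% to B. From Grow to Grow-shA1 the bins that went to A and to B numbered 5 and 2 on chromosome 20, 2 and 3 on chromosome 21, and 5 and 2 on chromosome 22, against 1.65% and 1.7% of the genome. From Grow-shA1 to OIS-shA1 they numbered 23 and 1, 20 and 4, and 5 and 5, against 7.83% and 1.37%. Of the 24 bins of chromosome 21 that went to A from Grow to OIS, 17 (70.8%) also did so from Grow-shA1 to OIS-shA1, where they made up 85.0% of the 20 that did, and on chromosome 20 14 were common to both, which is 77.8% of 18 and 60.9% of 23. Many of the bins that changed sign had small scores: counting only scores over 0.2 standard deviations from 0 in both maps, 13 bins of chromosome 21 went from B to A from Grow to OIS, 9 of chromosome 20 and 0 of chromosome 22, and from OIS to OIS-shA1 2 bins of chromosome 21 went to B and 1 of chromosome 20 to A.

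The bins of 21q that went from B to A lay mainly in its gene-rich part, 15 of 78 (19.2%) against 7 of 89 (7.87%) in proximal 21q, and 2 of the 8 bins of the short arm. In proximal 21q 3 neighbouring bins at the end of the long gene-poor block (chr21:26799365-27386674) changed together. They hold MRPL39, JAM2, an adhesion molecule of cell junctions, ATP5PF, GABPA, a transcription factor of the ETS family, and part of APP, the amyloid precursor protein, and their mean score was −0.41, −0.48, 0.69 and 0.46. A bin with CXADR, the receptor of coxsackie and adenoviruses, and BTG3 had −0.06, −0.01, 0.58 and 0.34. The bin with the start of APP was already positive in Grow and rose further, with 0.32, 0.44, 0.98 and 0.72.

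In distal 21q the changed runs included several gene clusters. The run chr21:33001069-33399993, with SOD1, the cytosolic superoxide dismutase, SCAF4 and HUNK, had mean scores of −0.47, −0.72, 0.65 and 0.26. The run with OLIG2, OLIG1 and IFNAR2, a subunit of the type I interferon receptor (chr21:34201140-34599368), had −0.41, −0.51, 0.69 and 0.84. That of the potassium channel genes KCNJ6 and KCNJ15 (chr21:38998418-39600265, 3 bins) had −0.29, −0.10, 0.88 and 0.78. All 3 were negative in both growing maps and positive in both OIS maps.

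Some runs of distal 21q that were positive in OIS were negative in OIS-shA1. The run chr21:42599967-43007838, with the protease genes BACE2 and TMPRSS2 and the interferon-induced GTPases MX1 and MX2, had mean scores of −0.79, −0.98, 0.23 and −0.33, and a bin within TIAM1, an activator of the GTPase RAC1, −0.67, −0.92, 0.03 and −0.38. The bin of the KRTAP10 genes, a further family of keratin-associated proteins, had −0.72, −0.98, 0.11 and −0.01. Together with a bin without a gene start in proximal 21q (−0.41, −0.67, 0.02 and −0.18) these made up the 5 of the 24 bins that were negative in OIS-shA1. The one bin of chromosome 21 that went from A to B in OIS was that of PCBP3, an RNA-binding protein, near the end of the arm, with 0.75, 0.59, −0.10 and −0.11.

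On chromosome 20 most of the bins that went from B to A were single. The largest change was in the body of PREX1, an activator of RAC (chr20:47205761-47396544), with scores of −0.44, −0.43, 0.96 and 1.00, followed by MCM8, a helicase of the MCM family, and CHGB (chr20:5801443-5997994), with −0.57, −0.23, 0.73 and 0.94. The bin of MMP9, a matrix metalloproteinase, and CD40, a receptor of the TNF receptor family, had −0.62, −0.67, 0.25 and 0.40, that of CST3, the protease inhibitor cystatin C, −0.56, −0.59, 0.31 and 0.42, and the bins of THBD (thrombomodulin) and CD93 −0.33, −0.02, 0.66 and 0.64. All were positive in OIS-shA1 too. The 6 bins of chromosome 22 that went from B to A had scores closer to 0, such as the bin of BCR with −0.34, −0.10, 0.11 and 0.31. Its 3 bins that went from A to B formed 1 run without a gene start (chr22:27400073-28001817), with 0.33, 0.46, −0.34 and −0.10.

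**Figure D4:**
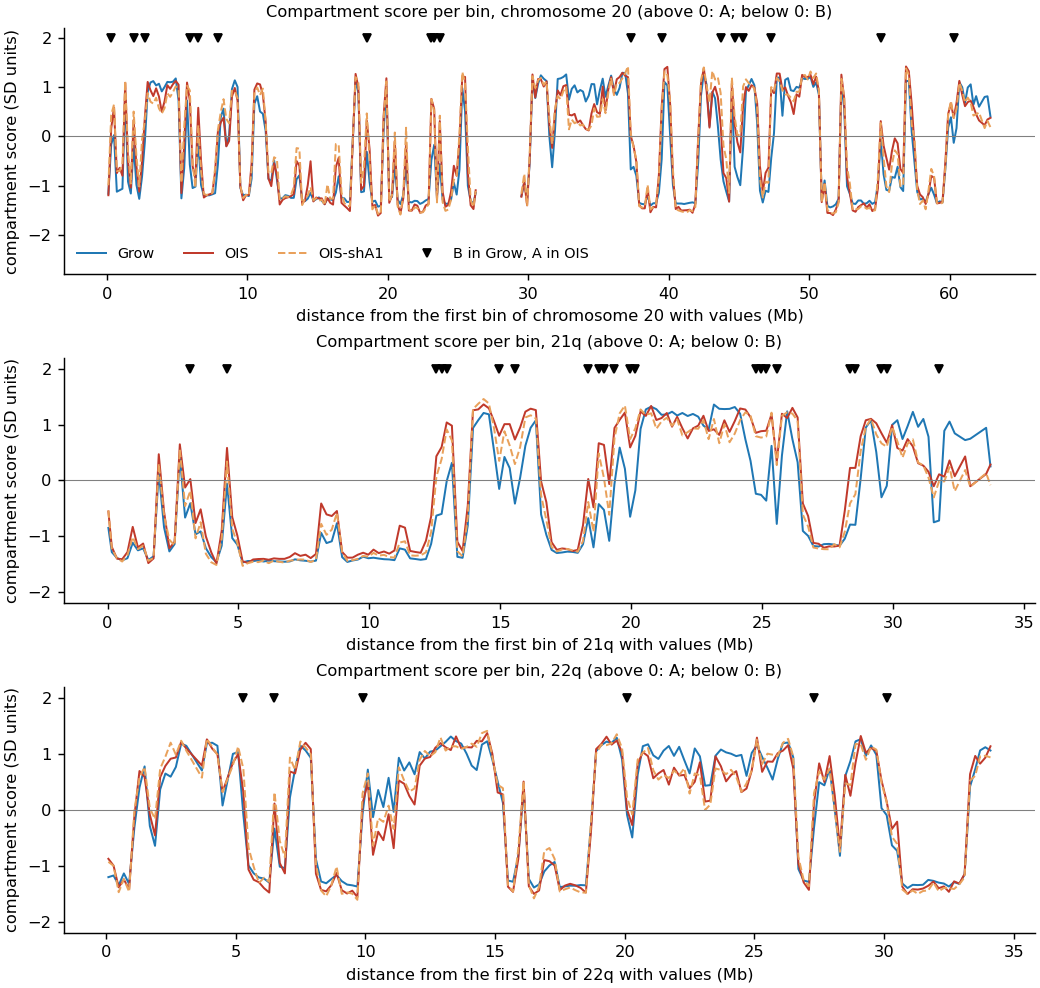
Compartment score of each bin (vertical axis, SD units, A above 0 and B below 0) along chromosome 20, 21q and 22q (horizontal axis, distance in Mb from the first bin with values) in Grow, OIS and OIS-shA1, with triangles at bins that were B in Grow and A in OIS. Of the 24 such bins of chromosome 21, 22 lie on 21q, and 15 of these in distal 21q.

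Runs of at least 10 B bins formed 13 blocks, 7 on chromosome 20, 3 on chromosome 21 and 3 on chromosome 22. The largest was block 2 of chromosome 21, counted from the centromere (chr21:17200702-27386674), with 51 bins over 10.2 Mb, 10 gene starts, a GC content of 35.9% and A/T runs over 7.61% of its length. It holds CHODL, NCAM2, a neural cell adhesion molecule, TMPRSS15, the enteropeptidase of the gut, and USP25. Its local contacts fell by 0.66 from Grow to OIS and rose by 0.44 from OIS to OIS-shA1, where the medians over 253 such blocks of the genome were −0.33 and 0.19. It ranked 28 from the lowest and 243 from the lowest in these comparisons. Its distal contact with other B bins fell by 0.45 from Grow to OIS, rank 4 from the lowest of the 253. It rose by 0.13 from OIS to OIS-shA1, rank 250, where the medians were −0.03 and −0.10. All blocks were called from the Grow map, so their falls from Grow cannot be told apart from an effect of that choice. In local contact 210 of the 253 blocks fell from Grow to OIS. Blocks 1, 2 and 3 of chromosome 22 rose, by 0.31, 0.15 and 0.26 (ranks 250, 232 and 246 from the lowest). So did block 3 of chromosome 21 (0.13) and blocks 4, 5 and 7 of chromosome 20 (0.16, 0.18 and 0.07).

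Block 3 of chromosome 21 (chr21:40798339-43007838), with DSCAM, a cell adhesion molecule of the nervous system, PCP4, BACE2 and MX1, ranked 2 from the lowest of the 253 for contact with other B bins, with a change of −0.63 from Grow to OIS, and −0.05 from OIS to OIS-shA1. Contact between blocks 2 and 3, 13.4 Mb apart, was 1.89, 1.92, 0.89 and 1.00 over 551 pairs, a fall of 1.00 from Grow to OIS. Blocks 1 and 3, 24.6 Mb apart, had 2.27, 1.90, 1.86 and 1.54 (108 pairs), and blocks 1 and 2 had 1.19, 1.06, 0.96 and 1.00 (492 pairs). The 3 pairs of blocks on chromosome 22 had 1.59, 1.66, 1.5 and 1.43 for blocks 1 and 2, 1.45, 1.44, 1.08 and 1.06 for blocks 1 and 3, and 1.74, 1.70, 1.35 and 1.26 for blocks 2 and 3. On chromosome 20 20 of 21 pairs of blocks were lower in OIS than in Grow, by 0.27 in the median. The share over pairs of blocks of the whole genome is not given here, so this count is not read as a trait of chromosome 20. Of the 253 single blocks of the genome, 153 had lower contact with other B bins in OIS, with a median change of −0.03. Apart from blocks 2 and 3 of chromosome 21, no pair of blocks on these chromosomes fell by more than 0.55 from Grow to OIS. That was the fall between block 1 of chromosome 20 (around BMP2) and its block 3 (around FOXA2 and THBD).

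**Figure D5:**
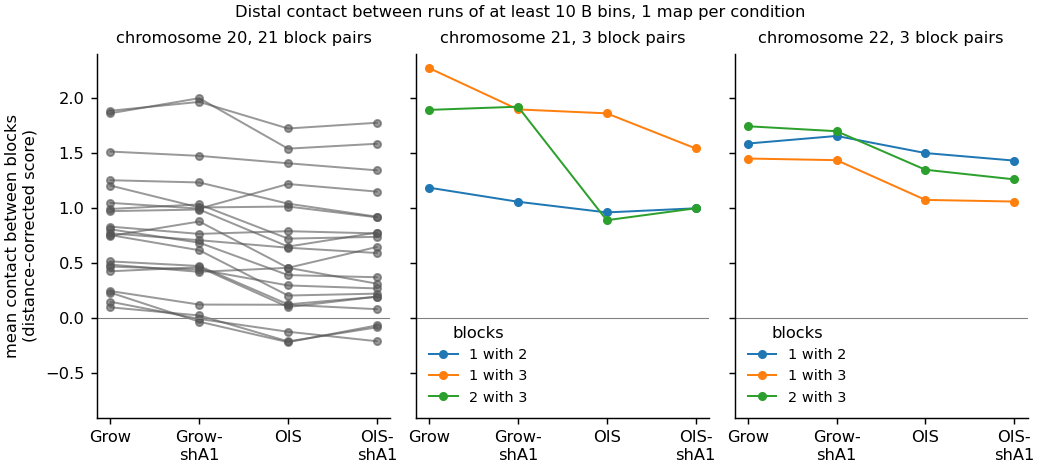
Mean distal contact (vertical axis, distance-corrected score) between runs of at least 10 B bins in the 4 maps (horizontal axis), 1 line for each pair of blocks on chromosomes 20, 21 and 22. The pair of blocks 2 and 3 of chromosome 21 falls from 1.89 in Grow to 0.89 in OIS and is 1.00 in OIS-shA1.

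Per bin, distal contact with B bins fell from Grow to OIS over most of each segment. From OIS to OIS-shA1 it was higher over most bins of proximal 21q only. It was lower in OIS in 79 of 89 bins of proximal 21q with a median of −0.29, in 58 of 70 of distal 21q (−0.31), in 134 of 158 of 22q (−0.19), in 123 of 130 of 20p (−0.19) and in 116 of 150 of 20q (−0.12), against 69.2% and a median of −0.09 over the genome. From OIS to OIS-shA1 25 of 89 bins of proximal 21q were lower (28.1%) with a median of 0.16, whereas 46 of 70 were lower in distal 21q, 82 of 158 on 22q, 99 of 130 on 20p and 86 of 150 on 20q, against 66.4% of the genome and a median of −0.06. From Grow to Grow-shA1 81 of 89, 51 of 70, 118 of 158, 107 of 130 and 109 of 150 were lower in the same order of segments (genome 81.2%), and from Grow-shA1 to OIS-shA1 57, 58, 113, 120 and 116 (genome 65.5%). Proximal 21q was the one segment in which under 50% of bins were lower from OIS to OIS-shA1. The B bins were called from the contacts of the Grow map. A fall of such bins from Grow therefore cannot be told apart from an effect of that choice. With the compartments of each map the B-B contact of the whole of chromosome 21 changed by 0.13 from Grow to OIS.

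The bins with the largest falls lay in different kinds of chromatin. On proximal 21q it was the bin between genes with 1300 A/T runs, with a contact with B bins of 1.30, 1.26, 0.66 and 0.97 (−0.64). On distal 21q the bin within DSCAM had 1.80, 1.71, 1.06 and 1.05 (−0.74), so that here OIS-shA1 stayed with OIS. On 22q the bin of OSBP2, an oxysterol-binding protein, had −0.01, 0.02, −0.76 and −0.61 (−0.75), on 20q the bin of PREX1 0.22, 0.17, −0.46 and −0.48 (−0.69), and on 20p the bin of MCM8 0.52, 0.28, −0.14 and −0.34 (−0.66). The last 2 are the bins that crossed furthest from B into A on chromosome 20. The largest rises were 0.33 at the gene-rich bin of MAPK11, PLXNB2 and HDAC10 on 22q (−0.17, −0.11, 0.17 and −0.05), 0.31 at TPX2, a factor of spindle assembly, and BCL2L1 on 20q (−0.62, −0.55, −0.31 and −0.19), 0.26 within RUNX1 (−1.39, −1.41, −1.14 and −1.18), 0.17 within PLCB4 on 20p, and 0.16 in a bin of proximal 21q without a gene start.

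Genes were read by the bin that holds their start, in 6 lists. B bins were again those of the Grow map, with the limit given above. From Grow to OIS distal contact with B bins was lower in 515 of 602 bins of the 3 chromosomes (85.5%, median −0.18), against 69.2% and −0.09 over the genome, and the counts of the lists are to be read against these. Of the 13 bins with a value in the list of secreted factors, proteases and receptors of inflammation, 12 were lower, with a median of −0.35, and 4 went from B to A, where 8.91% of the bins of the genome did. Only 6 of the 15 bins of this list lay in A in Grow, and only bins in B could go to A. With so few bins, and no share over B bins alone, these differences are not read as a trait of these genes. MX1 and MX2 share the bin with the largest fall (1.01, 1.17, 0.37 and 0.41, change −0.64), followed by LIF and OSM, cytokines of the IL-6 family (−0.51, −0.69, −1.01 and −0.84, change −0.50). MIF, a cytokine, had the highest change (0.17), with 0.16, 0.00, 0.33 and 0.21, followed by the bin of PI3, the elastase inhibitor elafin, at −0.01. The bin of MMP9 and CD40 had 0.43, 0.28, 0.08 and −0.11. From OIS to OIS-shA1 6 of the 13 were lower, with a median of 0.00.

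Neuronal and adhesion genes, of which 6 of 19 bins were in A in Grow, had lower contact with B bins in OIS in 18 of 19 bins, with a median of −0.19 that lies near the −0.18 of the 3 chromosomes. DSCAM had 1.75, 1.66, 1.19 and 1.09 at its start, KCNJ6 0.31, 0.13, −0.19 and −0.24, and NCAM2 1.38, 1.32, 0.92 and 1.23, which made NCAM2 one of the bins whose value in OIS-shA1 lay nearer to Grow than to OIS. APP had −0.02, −0.18, −0.23 and −0.10. The 2 highest changes were −0.02 at GRIK1, a glutamate receptor, and 0.10 at PLCB4, a phospholipase. In the clustered gene families 10 of 12 bins were lower with a median of −0.14, from −0.33 at KRTAP10-1 and CST3 to 0.02 at IGLL1 and 0.15 at APOL1.

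Cell cycle and replication genes lay in A in 15 of 18 bins in Grow. Of the 17 with a value 13 were lower from Grow to OIS, with a median of −0.05, beside 85.5% and −0.18 over the 3 chromosomes. With so few bins, and no share over A bins alone, the difference is not read as a trait of these genes. MCM8 (−0.66) and BID, a factor of apoptosis (0.28, 0.21, −0.12 and −0.10, change −0.40), were the lowest, and E2F1, a transcription factor of S phase (change 0.07), and TPX2 (0.31) the highest. PCNA, the sliding clamp of DNA replication, had −0.06, −0.25, −0.40 and −0.40. Of the transcription factors 9 of 15 bins were lower with a median of −0.11, from TBX1 (−0.40) and ETS2 (−0.34) to NFATC2 (0.09) and PLAGL2 (0.13). CEBPB, a regulator of the senescence secretome, had −1.42, −1.47, −1.42 and −1.26, and RUNX1 −0.77, −0.83, −0.84 and −0.93.

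Genes of the extracellular matrix and growth factors were lower in 10 of 13 bins, with a median of −0.12, beside 85.5% and −0.18 over the 3 chromosomes. In Grow 11 of the 17 bins of the list lay in A, and no share over A bins alone is given here. The difference is therefore not read as a trait of these genes. BMP2 (0.48, 0.38, 0.19 and 0.22) and JAG1, a ligand of Notch (−0.28, −0.21, −0.56 and −0.42), were lowest with changes of −0.29 and −0.28, and FBLN1, a protein of elastic fibres, and LGALS1, galectin 1, were highest with 0.20 and 0.21. TIMP3, an inhibitor of metalloproteinases, had 0.27, 0.02, 0.20 and 0.09, and PDGFB, a growth factor chain, −0.82, −0.88, −0.98 and −0.87. COL6A1, COL6A2 and COL18A1, collagen genes near the end of 21q, lie in bins with too few values and were not analysed here. From OIS to OIS-shA1 3 of the 13 bins of this list were lower with a median of 0.03, beside −0.06 over the genome and −0.02 over the 3 chromosomes.

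The change from Grow-shA1 to OIS-shA1 was finally set against that from Grow to OIS over blocks of 5 by 5 bins, comparisons with no map in common. The least-squares slope was 0.719 on chromosome 20 (1611 blocks), 0.640 on chromosome 21 (535) and 0.578 on chromosome 22 (525), and the Pearson correlations were 0.686, 0.701 and 0.578, as a description over blocks of the same maps. Over single pairs the slopes were 0.262, 0.437 and 0.149. Over the 23 chromosomes slopes ran from 0.578 to 0.795, with chromosome 22 the lowest, chromosome 21 at rank 21 from the highest and chromosome 20 at rank 10.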

How the data were processed

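Chromosomes 20, 21 and 22 were described in 4 Hi-C maps of bins of about 200 kb with edges at HindIII sites. The authors deposited for each condition 1 table of bin pairs with a score, which they made with HiC-Pro on hg19 by removing artefacts and duplicates, ICE normalisation and distance correction. One map was given for both samples of a condition, which was taken to pool them. Whether the distance correction was made per chromosome is not given in the sources used here. The scores were used as deposited, limited to pairs listed in each of the 4 maps, with Python 3.11.15, numpy 2.4.6, pandas 2.3.3 and matplotlib 3.10.9, and the code was checked on simulated data. GC content, gene starts and sequences came from GRCh37, in which 24 of 24 chromosome ends matched the bin list. 21q was split at 32 Mb, and chromosome 20 at the bin over 1 Mb long that spans its centromere. Named bins had the largest rise or fall of a segment, and named genes the lowest and highest 2 changes of a list, with a few always named. Bins needed values for 50% of their distal pairs and 10 pairs with B bins. The members, lists and comparisons were chosen with earlier results of these data known, and the local contact, GC split and ranks of chromosome 21 after these data were seen.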

Additional observations from a re-analysis of the deposited data

How the results depend on the processing

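No paired analysis was possible because the 2 numbered samples of each shA1 condition share 1 map and the maps without shA1 have no numbered samples. With no replicate maps, a value was called moved where it kept its sign and changed by over 0.05 and over 1.5 times, and a count where it changed by over 1.5 times. The causes were not tested. The gap in local contact between proximal and distal 21q changed by −0.65 to −0.77 from Grow to OIS and by 0.39 to 0.47 from OIS to OIS-shA1 under scaling, limits, centring and both other borders, whereas its change from Grow-shA1 to OIS-shA1, −0.16, was −0.26 with scaling and −0.08 with the border at 30 Mb. That between 20p and 20q was −0.098 from Grow to OIS and −0.088 from Grow-shA1 to OIS-shA1 with scaling. Over single pairs the slopes of chromosomes 20 and 22 fell to 0.26 and 0.15. That of chromosome 21 fell too, by less, and stayed within the limits for a moved value, as under its other alternatives.

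Compartment strength was the least stable measure. From Grow to OIS its change on chromosomes 20, 21 and 22 was −0.20, −0.17 and −0.18 with values divided by their standard deviation, −0.21, −0.17 and −0.19 with missing pairs as 0, and −0.11, −0.00094 and −0.078 over the pairs of each map. On chromosome 20 it was −0.017 over 5 Mb and 0.18 with compartments from GC content, on chromosome 21 it was 0.29 with the compartments of each map and 0.37 with those from GC content, and on chromosome 22 it was 0.12 with those of each map. From Grow-shA1 to OIS-shA1 it was −0.19, −0.22 and −0.23 with scaling, −0.22, −0.22 and −0.26 with missing pairs as 0, −0.15, −0.092 and −0.19 over the pairs of each map, and 0.12, 0.26 and 0.058 with compartments from GC content. There it was −0.00013 on chromosome 20 and 0.069 on chromosome 21 with the compartments of each map, and −0.12 on chromosome 21 over 5 Mb. Between OIS and OIS-shA1 it was 0.00052 on chromosome 21 and −0.094 on chromosome 22 with scaling, −0.093 on chromosome 21 with the compartments of each map, and −0.10 and −0.039 on chromosomes 21 and 22 with those from GC content. From Grow to Grow-shA1 it was −0.023 with scaling, −0.073 with missing pairs as 0, −0.037 over the pairs of each map, −0.0025 over 5 Mb, −0.00042 with the compartments of each map and −0.023 with those from GC content on chromosome 20. On chromosome 21 it was 0.014 with missing pairs as 0, 0.13 with the compartments of each map and 0.0071 with those from GC content, and on chromosome 22 it was 0.036 with those of each map. With the compartments of each map the B-B contact of chromosome 21 changed by 0.13 from Grow to OIS, −0.046 from OIS to OIS-shA1 and 0.15 from Grow-shA1 to OIS-shA1, and its A-A contact from Grow-shA1 to OIS-shA1 by 0.0087 (0.072 with common centring).

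For distal pairs within proximal 21q the change from Grow to OIS was −0.32 with scaling, −0.071 over 5 Mb and −0.027 with common centring, that from OIS to OIS-shA1 was 0.092 with values limited at the percentiles 1 and 99, and that from Grow-shA1 to OIS-shA1 was −0.0096 with scaling, 0.23 with common centring and 0.050 with the border at 34 Mb. Between proximal and distal 21q the changes from Grow to OIS, Grow to Grow-shA1 and Grow-shA1 to OIS-shA1 were −0.13, −0.023 and −0.079 with missing pairs as 0 and −0.15, −0.023 and −0.098 over the pairs of each map, and that from OIS to OIS-shA1 was −0.051 with the border at 34 Mb. Within distal 21q the change from Grow to OIS was 0.19 with scaling, 0.24 with common centring and 0.042 with the border at 30 Mb, and that from Grow-shA1 to OIS-shA1 was −0.026 with scaling and −0.022 with common centring. On 22q the changes from Grow to OIS and from Grow-shA1 to OIS-shA1 were −0.024 and −0.014 with missing pairs as 0, −0.026 and −0.015 over the pairs of each map, and −0.029 and −0.020 with common centring. There the change from OIS to OIS-shA1 was −0.0013 with limited values and −0.0044 over 5 Mb, and that from Grow to Grow-shA1 was 0.0059 with common centring.

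Counting only scores over 0.2 standard deviations from 0, the bins that moved to A and those that moved to B numbered 9 and 0 on chromosome 20, 13 and 0 on chromosome 21, and 0 and 1 on chromosome 22 from Grow to OIS. From Grow-shA1 to OIS-shA1 they numbered 6 and 0, 11 and 0, and 0 and 1, and from Grow to Grow-shA1 0 and 0 on each. Between OIS and OIS-shA1 1 bin of chromosome 20 went to A, 2 of chromosome 21 to B, and on chromosome 22 0 went either way. With a component per arm the A-to-B counts of chromosome 20 were 0 from Grow to OIS, 3 from OIS to OIS-shA1, 1 from Grow to Grow-shA1 and 0 from Grow-shA1 to OIS-shA1. With bins that had 25% of their pairs, 4 bins of chromosome 21 went from A to B from Grow to OIS and 7 from Grow-shA1 to OIS-shA1. With limited values 3 bins of chromosome 22 went from B to A from Grow to Grow-shA1.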
